A study of Mus musculus with 4 samples.

Results

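CA3 pyramidal neuron nuclei were studied in single-nucleus RNA sequencing (snRNA-seq) of cortex and hippocampus from mice aged 5 weeks. A nucleus was counted as CA3 when it held at least 2 unique molecular identifiers (UMIs, counted molecules) of Slc17a7, at most 1 of Gad1 and Gad2 together, at least 1 of Iyd, and a UMI of at least 2 of Slc9a4, Gm31698, Ifi203, Mndal and Gm32647. It also had to hold a UMI of fewer than 3 of the 6 CA1 genes Fibcd1, Gm2115, 2310002F09Rik, B230110G15Rik, 4921539H07Rik and Pou3f1. The nuclei were thus chosen by their counts of 15 genes. Those genes are given here as levels only, although the ones with enough UMIs stayed in the fit across all genes. The rule found 130 nuclei among the 36094 that passed the quality filter (over 600 genes detected, mitochondrial UMIs under 5%).

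Each of the 4 libraries came from 1 mouse on the C57BL/6J background. Both genotypes carried the floxed allele of Sel1L on both chromosomes, and mice of the group labelled Sel1L SynCre carried in addition a Cre transgene driven by the Synapsin I promoter, which is active in postmitotic neurons. By the study's staining of this line, SEL1L protein was lost from nearly all CA3 and dentate granule neurons but from only part of the cortical neurons, and most of it remained in CA1. The 2 Sel1L fl/fl libraries held 53 and 20 CA3 nuclei with 1029792 and 356344 UMIs, and the 2 Sel1L SynCre libraries held 20 and 37 CA3 nuclei with 371654 and 778374 UMIs. With 2 mice per genotype and as few as 20 nuclei in a library, precision was limited by mice, nuclei and UMIs alike. Values of the 4 libraries are given in the order Sel1L fl/fl 1 and 2, then Sel1L SynCre 1 and 2.

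CA3 pyramidal neurons receive the mossy fibre input of dentate granule neurons, connect with each other through recurrent synapses, and send the Schaffer collaterals to CA1. SEL1L is the adaptor of the ubiquitin ligase HRD1, and the pair moves misfolded proteins of the endoplasmic reticulum (ER) to the cytosol for degradation, a process called ER-associated degradation (ERAD). When misfolded proteins accumulate, the sensors ATF6, IRE1 and PERK start the unfolded protein response (UPR), in which ATF6 and XBP1 raise ER chaperones and ATF4 raises amino acid enzymes, transporters and the factor CHOP.

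The label was first checked against CA3 genes that the rule did not use. Grik4, a kainate receptor subunit concentrated in CA3, was at 1178, 1010, 1310 and 1483 CPM (counts of a gene scaled to a common total of UMIs) in the CA3 nuclei, against 117 to 241 CPM in CA1 nuclei and 237 to 333 CPM in dentate granule nuclei. Nectin3, a cell adhesion molecule, was at 493, 424, 355 and 452 CPM, against 63.9 to 75.3 CPM in CA1 nuclei. Elavl2, Cpne4, Bok and Cdh24 were likewise higher in every CA3 pool than in any pool of CA1, dentate granule or other excitatory nuclei. Dkk3 did not separate CA3 from CA1, with 134 to 157 CPM in CA3 and 130 to 189 CPM in CA1. Coch, at 1.28 to 8.07 CPM, was lower than in other excitatory nuclei.

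Genes of neighbouring types were mostly low. The CA1 gene Lefty1 was at 0 UMIs in all 4 CA3 pools, and Mpped1 reached at most 11.2 CPM, against 156 to 165 CPM in CA1. The CA1 genes 2310002F09Rik and 4921539H07Rik of the rule were not low in CA3, with 80.7 to 131 and 159 to 255 CPM. The dentate genes Prox1 and Glis3 stayed at or below 5.83 and 22.5 CPM. The 6 CA2 genes were each at or below 19.6 CPM, and the mossy cell gene Csf2rb2 reached 15.4 CPM in Sel1L SynCre 2.

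**Figure D1:**
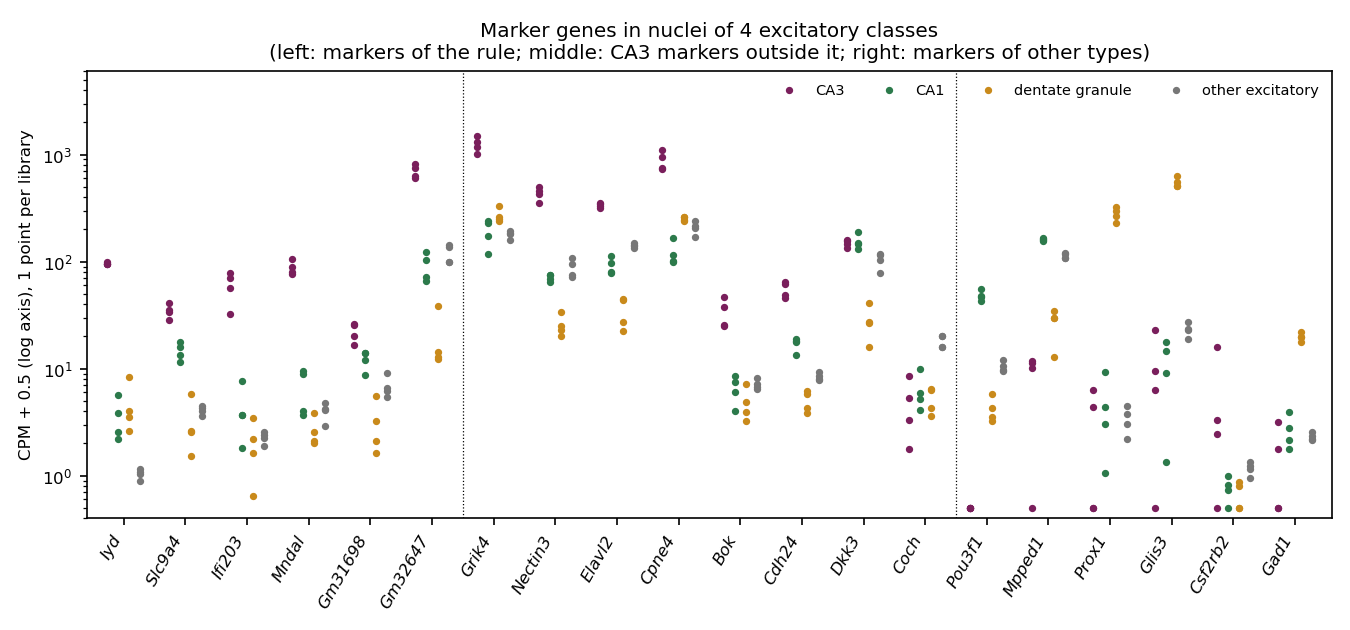
CPM plus 0.5 of each marker gene on a log axis, with 1 point per library for CA3, CA1, dentate granule and other excitatory nuclei. Genes on the left chose the CA3 nuclei, those in the middle are CA3 genes that the rule did not use, and those on the right mark other types. Grik4, Nectin3, Elavl2 and Cpne4 lie above the other classes in all 4 CA3 pools, while Dkk3 and Coch do not.

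Among genes of at least 100 CPM in CA3 nuclei, Trps1, a GATA-type zinc finger repressor, had the largest ratio of its mean CA3 level to the highest mean of CA1, dentate granule and other excitatory nuclei, at 8.68. Leaving out genes of the rule, the next were 9530026P05Rik at 7.02, Nectin3 at 4.98 and Grik4 at 4.61. Nuclei with Iyd and exactly 2 further markers, just inside the rule, held 1273 CPM of Grik4 in 46 nuclei, and nuclei with 3 or more held 1265 CPM in 84 nuclei. The 40 nuclei with Iyd and 1 further marker, just outside, held 647 CPM of Grik4 and 46.4 CPM of the CA1 gene Mpped1, against 9.12 CPM of Mpped1 just inside.

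The libraries were then checked before the genotypes were compared. Sel1l itself was at 98, 44, 83 and 157 UMIs in the CA3 nuclei, or 103, 133, 228 and 207 CPM after TMM scaling, the scaling used for all CPM from here on. Both Sel1L SynCre pools were above both Sel1L fl/fl pools, with a log2 fold change of 0.91 ± 0.20 (SE) that missed the threshold (edgeR, adjusted p = 0.0827), and without Sel1L fl/fl 1, doubted below, it was 0.71 (adjusted p = 0.341). A 3′ count need not fall in the deleted part of the gene, so it does not check the deletion. UMIs of the Cre transgene numbered 3, 0, 1 and 5 in the CA3 nuclei and 490, 0, 262 and 260 in all kept nuclei. Cre UMIs thus went against the label of Sel1L fl/fl 1, and the total count and the called genes that lost their call without it are given both ways below, with several lists and uncalled genes. Xist was at 4, 403, 2 and 726 UMIs and the Y-linked Ddx3y at 26, 0, 21 and 0 UMIs in the CA3 nuclei, so each genotype had 1 library with each pattern.

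Depth per nucleus was close in the 4 pools. Medians were 18055, 17158.5, 17571.5 and 18095 UMIs per CA3 nucleus, and medians of 4733, 4695, 5096 and 5322 genes were detected. At a fixed 8000 UMIs per nucleus the medians were 3011, 3027, 3133 and 3160 genes, higher in both Sel1L SynCre pools. Between 9 and 32 cell barcodes were shared by a pair of libraries, and no CA3 barcode was shared with a CA3 barcode of another library.

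CA3 nuclei made up 0.429% (95% Wilson interval 0.328 to 0.560) and 0.237% (0.154 to 0.366) of kept Sel1L fl/fl nuclei, and 0.248% (0.161 to 0.383) and 0.512% (0.371 to 0.704) of Sel1L SynCre nuclei. The intervals cover counting error only, and the genotypes overlapped. The difference of the means was 0.0469 percentage points, with a two-sided exact permutation p = 0.667, where 2 against 2 libraries cannot go below 0.333. Of the hippocampal excitatory nuclei found by the marker rules, CA3 nuclei were 4.89% and 4.01% in Sel1L fl/fl and 4.62% and 8.03% in Sel1L SynCre, a difference of 1.87 points that also did not pass (exact permutation p = 0.667).

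The genotype comparison asked which genes differ in CA3 nuclei between the Sel1L SynCre and Sel1L fl/fl mice. The ER folding genes Dnajc3, Pdia3 and Hspa5 rose by 1.65 to 1.94 on the log2 scale, Magt1 by 2.53 and Gm34567 by 1.65, and the genes that fell included Brinp3, Unc5d, Kcnb2 and Pcsk2. Of 7456 genes tested, 21 passed an adjusted p of 0.05 (edgeR quasi-likelihood test), or 0.282%, of which 5 were higher (0.0671%) and 16 lower (0.215%). At an unadjusted p under 0.05 there were 629 genes (8.44%), 288 higher (3.86%) and 341 lower (4.57%), and the median log2 fold change over all genes was -0.0004. Without the library labelled Sel1L fl/fl 1, 52 genes passed, 18 of the 21 among them, and the 3 others were Magt1, Cpne9 and Ttn. Leaving out Sel1L fl/fl 2 gave 117 genes, Sel1L SynCre 1 gave 30 and Sel1L SynCre 2 gave 33. With 3 libraries left the sexes were unbalanced, and these counts held 3, 5, 3 and 1 of the genes Xist, Tsix, Eif2s3y, Uty, Kdm5d and Ddx3y, of which none was among the 21. Thinning all pools to the smallest total left 0 genes (481 at an unadjusted p under 0.05), so the count itself depended strongly on the setting.

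Dnajc3, also called P58IPK, is a co-chaperone of BiP in the ER lumen and an inhibitor of the kinase PERK. It was at 47.3 and 45.2 CPM in the Sel1L fl/fl pools and at 134 and 156 CPM in the Sel1L SynCre pools. The groups did not overlap, and the log2 fold change was 1.65 ± 0.24 (SE, adjusted p = 0.00869). Hspa5 encodes BiP, the main HSP70 chaperone of the ER. It was at 23.1, 15.1, 79.6 and 80.4 CPM, again without overlap, a log2 fold change of 1.94 ± 0.32 (adjusted p = 0.0183). Both genes are on GRCm38, Hspa5 at chr2:34771970-34777547 and Dnajc3 at chr14:118937976-118981697.

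Pdia3, a disulfide isomerase of the calnexin cycle, was at 26.3, 21.1, 79.6 and 88.4 CPM. Both Sel1L SynCre pools were higher, and the log2 fold change was 1.77 ± 0.30 (adjusted p = 0.0193). Magt1, a subunit of the oligosaccharyltransferase that also carries magnesium, rested on fewer molecules, with 6, 4, 19 and 33 UMIs, or 6.31, 12.1, 52.2 and 43.5 CPM. It rose by 2.53 ± 0.45 on the log2 scale (adjusted p = 0.0212), and without Sel1L fl/fl 1 its log2 fold change was 1.94 (adjusted p = 0.216). Pdia3 lies at chr2:121413775-121438687, where it overlaps Catsper2 on the other strand, and Magt1 at chrX:105968084-106011906. The fifth higher gene was the long noncoding RNA Gm34567 (chr17:14249851-14277755), at 27.3, 18.1, 68.6 and 83.1 CPM, a log2 fold change of 1.65 ± 0.31 (adjusted p = 0.0313). Of its UMIs, 14 of 26 in Sel1L fl/fl 1 and 15 of 25 in Sel1L SynCre 1 came from 1 nucleus each.

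Without the library labelled Sel1L fl/fl 1, the log2 fold changes were 1.70 for Dnajc3 (adjusted p = 0.000784), 2.40 for Hspa5 (adjusted p = 0.0008), 2.00 for Pdia3 (adjusted p = 0.0043) and 2.09 for Gm34567 (adjusted p = 0.00504). The same 4 genes were therefore also higher against Sel1L fl/fl 2 alone, which held no Cre UMI. When nuclei were taken by any 3 of the 6 CA3 markers, a choice made after seeing the data, Dnajc3 was the only gene that passed (log2 fold change 1.73, adjusted p = 0.00423), and Hspa5 was at 1.42 (adjusted p = 0.166).

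The promoters of Dnajc3 and Hspa5 are shown because the ER stress response element (ERSE), the sequence through which ATF6 and XBP1 act, was found in both. Herpud1 is shown for the related ERSE-II, and Pdia3 as a higher gene with an exact match to neither. Each run is 250 bases before to 50 bases after the RefSeq start in GRCm38.p6, 5′ to 3′ on the plus strand. Capitals mark the matches. They are at chr2:34771840-34772139 for Hspa5, chr14:118937682-118937981 for Dnajc3, chr8:94386179-94386478 for Herpud1 and chr2:121413652-121413951 for Pdia3.
Hspa5: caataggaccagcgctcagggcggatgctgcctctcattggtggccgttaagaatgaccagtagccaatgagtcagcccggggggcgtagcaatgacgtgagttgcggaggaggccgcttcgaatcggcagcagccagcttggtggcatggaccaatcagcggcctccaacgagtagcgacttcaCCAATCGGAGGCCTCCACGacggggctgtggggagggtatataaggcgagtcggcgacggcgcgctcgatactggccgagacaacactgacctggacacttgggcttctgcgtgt
Dnajc3: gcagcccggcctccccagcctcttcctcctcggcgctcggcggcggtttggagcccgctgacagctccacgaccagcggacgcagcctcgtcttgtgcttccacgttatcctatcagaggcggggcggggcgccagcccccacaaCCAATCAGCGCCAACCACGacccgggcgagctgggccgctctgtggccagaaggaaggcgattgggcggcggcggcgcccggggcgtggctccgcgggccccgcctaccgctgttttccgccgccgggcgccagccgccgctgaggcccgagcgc
Herpud1: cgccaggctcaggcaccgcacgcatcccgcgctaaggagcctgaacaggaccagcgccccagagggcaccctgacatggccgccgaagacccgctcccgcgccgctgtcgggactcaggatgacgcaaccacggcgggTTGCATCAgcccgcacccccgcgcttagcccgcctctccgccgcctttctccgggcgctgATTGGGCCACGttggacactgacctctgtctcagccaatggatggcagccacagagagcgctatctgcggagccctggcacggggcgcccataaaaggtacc
Pdia3: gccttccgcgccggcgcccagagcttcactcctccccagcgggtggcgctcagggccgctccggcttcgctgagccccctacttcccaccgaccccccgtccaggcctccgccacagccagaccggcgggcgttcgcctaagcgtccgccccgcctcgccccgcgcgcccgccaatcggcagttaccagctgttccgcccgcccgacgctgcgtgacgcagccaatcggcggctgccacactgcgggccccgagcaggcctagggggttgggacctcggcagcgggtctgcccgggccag

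Both strands were searched for exact matches only. The ERSE was taken as CCAAT, 9 bases of any kind and CCACG, ERSE-II as ATTGG, 1 base of any kind and CCACG, the ATF4 element as TGATGNAA and the XBP1 element (UPRE) as TGACGTGG. ERSE and ERSE-II share the ending CCACG, which is also in the reverse complement of the UPRE, so these matches can overlap. The ERSE of Hspa5, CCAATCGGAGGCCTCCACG, began at position -65 from the start, and that of Dnajc3, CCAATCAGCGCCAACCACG, at -105. Herpud1 held the ERSE-II ATTGGGCCACG at -52 and, on the minus strand, an ATF4 element at -112, which reads TTGCATCA in the printed run. An exact ERSE was in 39 of 32851 promoters (0.119%), ERSE-II in 12 (0.0365%), the ATF4 element in 1304 (3.97%) and the UPRE in 222 (0.676%). Among the 5763 genes tested in CA3 nuclei that had a promoter in the table, 9 held an ERSE (0.156%), 6 an ERSE-II (0.104%), 155 the ATF4 element (2.69%) and 72 the UPRE (1.25%). All 5 genes that rose had a promoter in the table, and 2 of them held an ERSE. Of the ER chaperone and folding genes tested, 6 of the 13 with a promoter held one, among them Calr, Canx and Pdia6, whose levels in CA3 nuclei did not pass the test. Of the genes that fell, 12 had a promoter in the table and none held an ERSE, while Brinp3 and Kcnab1 held the ATF4 element.

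The list of ER chaperones and folding enzymes had 18 of 25 members past the filter on low counts. Of these, Dnajc3, Hspa5 and Pdia3 rose and none fell. At an unadjusted p under 0.05, 10 were higher and 0 lower, against 3.86% and 4.57% of all genes tested. The median log2 fold change was 0.79, with 15 members above 0. Summed over the list, the level was 819, 781, 1606 and 1348 CPM. Both Sel1L SynCre pools were thus above both Sel1L fl/fl pools for the list as a whole. The pools did not overlap and were higher in Sel1L SynCre for 13 of the 18 members, where this held for 19.6% of all genes tested. Without Sel1L fl/fl 1, 5 of 19 members tested rose (Hsp90b1 and Dnajb11 in addition), 0 fell and the median was 1.00.

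Members close to the threshold are given by their values. Ppib, a prolyl isomerase of the ER, was at 61.0, 60.3, 134 and 129 CPM, a log2 fold change of 1.11 ± 0.23 (adjusted p = 0.0534). Hsp90b1, which encodes the ER HSP90 chaperone GRP94, was at 59.9, 36.2, 162 and 108 CPM (log2 fold change 1.34 ± 0.28, adjusted p = 0.0569). The groups of both genes did not overlap. With edgeR, both passed when at least 10 counts were required in every library (adjusted p = 0.0288 for Ppib and 0.0302 for Hsp90b1). Both also passed with the replicate number as a block (0.00463 and 6.56e-05). Hsp90b1 passed without suspected doublets (0.0278) and Ppib with upper-quartile scaling (0.0434). Neither passed in the nuclei taken by any 3 of the 6 CA3 markers (0.197 and 0.0943). Without Sel1L fl/fl 1 the log2 fold change of Hsp90b1 was 1.86. Dnajb11, another BiP co-chaperone, was at 18.9, 6.03, 46.7 and 47.5 CPM (1.63 ± 0.41, edgeR adjusted p = 0.143). It passed with the block (edgeR, adjusted p = 0.00977), and its log2 fold change was 2.92 without Sel1L fl/fl 1. Hyou1, an HSP70-like nucleotide exchange factor, was at 14.7, 3.01, 24.7 and 29.0 CPM (1.26 ± 0.51, adjusted p = 0.479), and at 3.09 without that library (adjusted p = 0.638).

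The secreted ER stress factor Manf was at 43.1, 69.3, 104 and 85.7 CPM, the ER oxidase Ero1lb at 62.0, 63.3, 148 and 85.7 CPM, and the glycoprotein folding sensor Uggt1 at 65.2, 48.2, 107 and 88.4 CPM. None of these 3 passed after adjustment (edgeR, adjusted p = 0.323, 0.306 and 0.391). The log2 fold change of Manf, 0.84, was 0.44 without Sel1L fl/fl 1 and 1.09 without Sel1L fl/fl 2. That of Ero1lb, also 0.84, ranged from 0.45 to 1.25 over the alternatives, the latter without Sel1L SynCre 2. Ero1lb passed with the replicate number as a block (edgeR, adjusted p = 0.0443). Canx, the lectin chaperone calnexin, was flat by comparison, at 67.3, 69.3, 74.1 and 63.3 CPM, and the reductase gene Dnajc10 was at 88.3, 115, 98.8 and 88.4 CPM. In both, the groups overlapped. Sdf2l1, a partner of BiP, had 0, 0, 5 and 8 UMIs and was too low to be tested, and a count of 0 allows up to 3 UMIs.

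**Figure D2:**
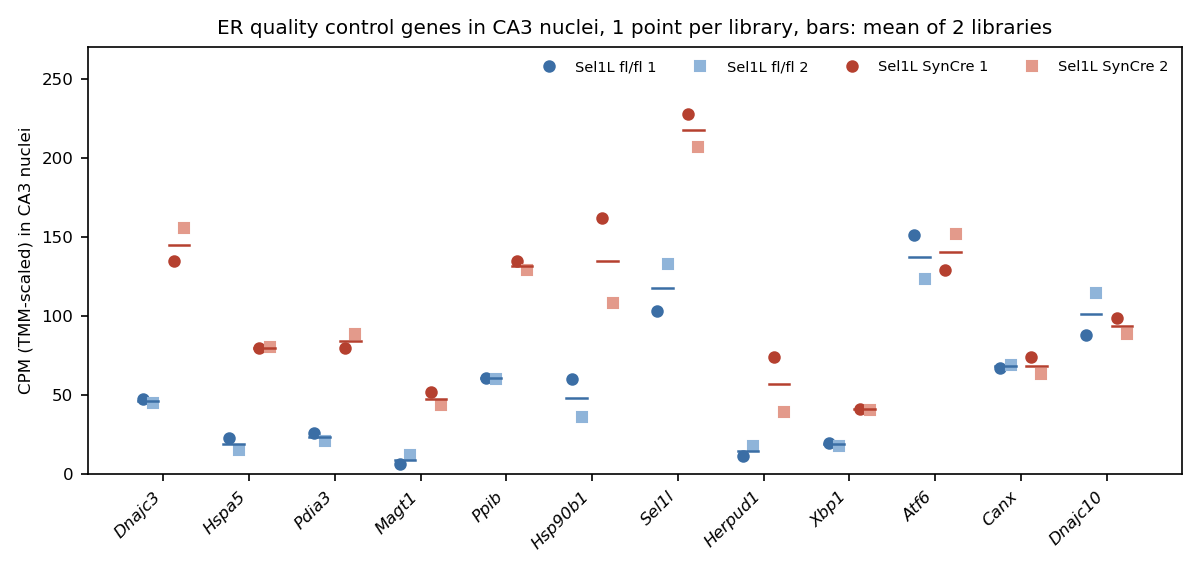
TMM-scaled CPM in CA3 nuclei of 12 ER quality control genes, with 1 point per library and a bar at the mean of the 2 libraries of a genotype. Dnajc3, Hspa5, Pdia3 and Magt1, at 134, 79.6, 79.6 and 52.2 CPM in Sel1L SynCre 1, lie above both Sel1L fl/fl points, while Atf6, Canx and Dnajc10 overlap.

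Chaperone levels were also read nucleus by nucleus. UMIs of the 25 folding genes were summed in each CA3 nucleus and expressed per 10000 UMIs of that nucleus. Medians were 7.48 and 7.43 in the Sel1L fl/fl pools and 13.6 and 12.7 in the Sel1L SynCre pools. The nuclei overlapped between genotypes, from 2.77 to 13.5 and 2.68 to 12.9 in Sel1L fl/fl and from 5.42 to 34.6 and 3.17 to 25.8 in Sel1L SynCre. In the same measure, medians were 6.94, 7.06, 8.24 and 7.71 in CA1 nuclei and 8.09, 7.94, 23.7 and 17.4 in dentate granule nuclei. They were 8.33, 7.78, 18.9 and 12.1 in oligodendrocyte nuclei, a type outside the neurons in which the Synapsin I promoter is known to act. The part of RNA from outside the nucleus in the CA3 values was not tested.

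The share of CA3 nuclei with a UMI of each gene was compared after every nucleus was thinned to 8000 UMIs, which left out 2, 0, 1 and 0 nuclei. Dnajc3 was then found in 23.5% and 25% of Sel1L fl/fl nuclei and in 68.4% and 67.6% of Sel1L SynCre nuclei. Before thinning it was found in 27 of 53, 10 of 20, 17 of 20 and 34 of 37 nuclei. Hspa5 was found in 36.8% and 43.2% of Sel1L SynCre nuclei after thinning, and in 17 of 53, 5 of 20, 12 of 20 and 22 of 37 nuclei before. A larger share of the Sel1L SynCre nuclei thus held a UMI of each gene in both libraries. For Hspa5, the nucleus with the most UMIs held 8 of 29 in Sel1L SynCre 1 and 5 of 61 in Sel1L SynCre 2.

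**Figure D3:**
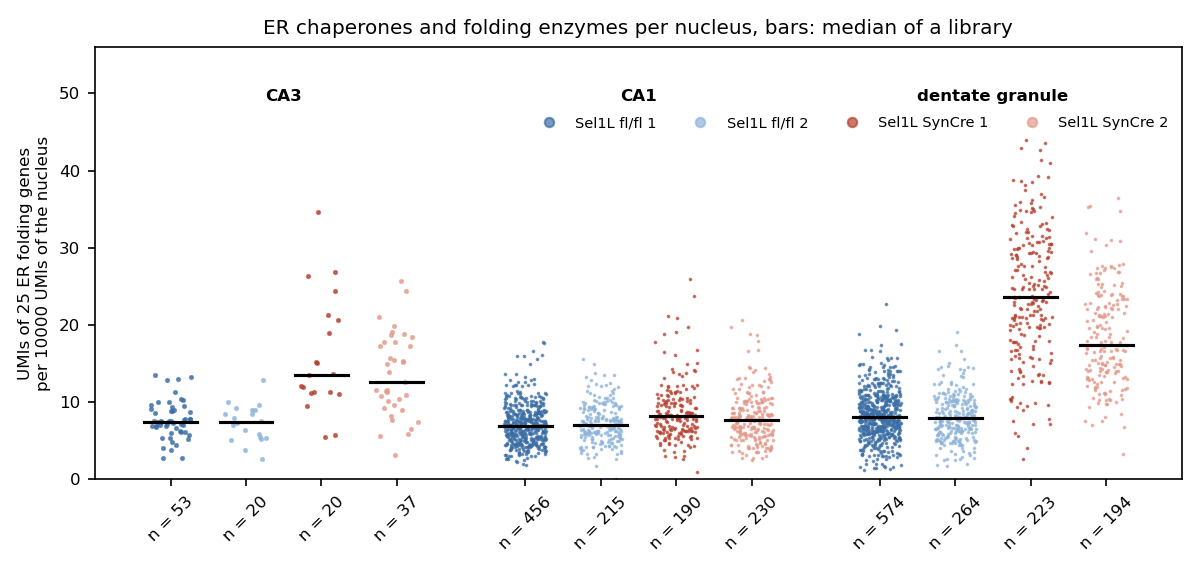
UMIs of 25 ER folding genes per 10000 UMIs, with 1 point per nucleus and a bar at the median of each library, for CA3, CA1 and dentate granule nuclei. Medians of the Sel1L SynCre libraries are 13.6 and 12.7 in CA3, 8.24 and 7.71 in CA1, and 23.7 and 17.4 in dentate granule nuclei, against 6.94 to 8.09 in the Sel1L fl/fl libraries.

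No gene on the lists of ERAD, of UPR sensors and factors, or of translocon and glycosylation genes passed after adjustment. Magt1, the oligosaccharyltransferase subunit that rose, was not on the last of these lists. Of 17 tested ERAD genes, the median log2 fold change was 0.08. At an unadjusted p under 0.05, 3 were higher and 0 lower, against 3.86% and 4.57% of all genes tested. The 3 were Sel1l, Herpud1 and Selenos. Herpud1, an HRD1 partner that the UPR induces, was at 11.6, 18.1, 74.1 and 39.6 CPM (log2 fold change 1.96 ± 0.43, edgeR adjusted p = 0.0827), and without Sel1L fl/fl 1 it was at 1.54 (adjusted p = 0.255). Herpud1 passed without Sel1L fl/fl 2 (2.15, adjusted p = 0.00201), without Sel1L SynCre 2 (2.46, adjusted p = 0.0205) and without the 5 CA3 nuclei that held 10 or more UMIs of a cortical layer or inhibitory marker (2.05, adjusted p = 0.0389), and Sel1l passed without Sel1L fl/fl 2 (1.05, adjusted p = 0.0039). Selenos, a VCP anchor at the ER membrane, was at 13.7, 6.03, 38.4 and 27.7 CPM (1.45 ± 0.47, adjusted p = 0.302), and at 2.35 without Sel1L fl/fl 1 (adjusted p = 0.572). Derl3, a stress-induced derlin, had 0 UMIs in both Sel1L fl/fl pools and 6 and 7 UMIs in the Sel1L SynCre pools, too few to be tested, where 0 UMIs allow up to 3 in each pool, and was at 0.298, 0.598, 42.2 and 4.51 CPM without TMM scaling in oligodendrocyte nuclei. The median of 16 ERAD genes tested without Sel1L fl/fl 1 was 0.33, with 0 past the threshold. With a term for the sex pattern, which here equals the replicate number and leaves 1 residual degree of freedom, Herpud1 (adjusted p = 0.000428), Sel1l (0.00463) and Selenos (0.0438) passed, as did Ddit3 (0.00315) among the genes below.

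Of 8 tested UPR sensors and transcription factors, 0 passed after adjustment and the median was 0.50. At an unadjusted p under 0.05, 3 were higher, against 3.86% of all genes tested. The genes of the 3 sensors themselves did not pass the test, with log2 fold changes of 0.02 ± 0.21 for Atf6, 0.38 ± 0.40 for Ern1, which encodes IRE1, and 0.62 ± 0.39 for Eif2ak3, which encodes PERK. Xbp1 was at 19.97, 18.1, 41.2 and 40.9 CPM (1.07 ± 0.37, adjusted p = 0.336). Ddit3, which encodes CHOP, had 4, 0, 8 and 15 UMIs (2.66 ± 0.75, adjusted p = 0.197). Creb3l2, an ER-bound transcription factor, was at 5.26, 15.1, 21.96 and 26.4 CPM (adjusted p = 0.373). For Xbp1, Ddit3 and Creb3l2 the Sel1L SynCre pools were both above the Sel1L fl/fl pools, on low counts. Without Sel1L fl/fl 1 only 4 members of the list could be tested, with a median of 0.33.

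Of 16 tested genes of the translocon, signal peptidase and glycosylation, 13 lay above 0, the median was 0.40 and 0 passed the threshold. Against 3.86% of all genes tested, 3 were higher at an unadjusted p under 0.05. Those were Ostc, an oligosaccharyltransferase subunit, at 32.6, 30.1, 68.6 and 75.2 CPM (1.18 ± 0.29, adjusted p = 0.127), Srpr, the receptor of the signal recognition particle (0.76 ± 0.28), and Sec61a1, the translocon channel (0.77 ± 0.34, and 1.30 without Sel1L fl/fl 1). Of 20 genes of COPII and COPI vesicle transport, 13 lay above 0 with a median of 0.12. Sec24d, a cargo adaptor, was the only member at an unadjusted p under 0.05 (1.03 ± 0.35, edgeR adjusted p = 0.34). That count is near the share of all genes tested. The genes listed as ATF4 targets had 9 of 27 members past the filter, all 9 above 0, with a median of 0.52 and 1 at an unadjusted p under 0.05.

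That gene was Nars, an aminoacyl-tRNA synthetase, at 65.2, 69.3, 132 and 87.0 CPM (0.67 ± 0.26, adjusted p = 0.445). It also belongs to the 17 tested cytosolic aminoacyl-tRNA synthetases, which had a median of 0.13, and in which Iars (0.61 ± 0.28) was the other member at an unadjusted p under 0.05. Of 8 tested genes of serine, folate and methionine metabolism the median was -0.01 with 4 above 0, and 0.26 without Sel1L fl/fl 1, again with 4 above 0. Mthfd2, a mitochondrial folate enzyme, was the 1 member at an unadjusted p under 0.05, with 10, 2, 15 and 17 UMIs, or 10.5, 6.03, 41.2 and 22.4 CPM (1.64 ± 0.52, adjusted p = 0.29). The pathway had 20 members measured, so 12 were too low in these pools to be tested. Of all genes tested, 3.86% were higher at an unadjusted p under 0.05.

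Among the 16 genes that fell, the largest fold changes were in genes of low level. Brinp3, a neural protein that inhibits cell cycle progression (chr1:146494760-146902472), was at 95.7, 148, 16.5 and 2.64 CPM, a log2 fold change of -3.95 ± 0.47 (adjusted p = 0.00255). Of its UMIs, 43 of 91 in Sel1L fl/fl 1 and 42 of 49 in Sel1L fl/fl 2 came from 1 nucleus each. These nuclei also held RNA of other types, 31 of the 32 Rorb UMIs of Sel1L fl/fl 1 and 20 of the 23 Adarb2 UMIs of Sel1L fl/fl 2. When the 5 CA3 nuclei with 10 or more UMIs of any cortical layer or inhibitory marker were left out, a choice made after seeing the data, Brinp3 was at -2.50 (adjusted p = 0.0524), while 41 genes passed in all, 20 of the 21 among them. Once suspected doublets were left out, Brinp3 no longer passed the filter on low counts. Cpne9, a copine that binds phospholipids with calcium (chr6:113282307-113305627), was at 116, 69.3, 13.7 and 23.7 CPM (-2.27 ± 0.35, adjusted p = 0.0107), and was found in 40 of 53, 10 of 20, 4 of 20 and 11 of 37 nuclei. Without Sel1L fl/fl 1 its log2 fold change was -1.76 (adjusted p = 0.109). Ttn, the gene of titin, had 76, 10, 1 and 10 UMIs (-2.66 ± 0.52, adjusted p = 0.0383), and without Sel1L fl/fl 1 it was at -1.61 (adjusted p = 0.892). Leaving out Sel1L SynCre 2 gave -4.42 for Ttn.

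Unc5d, Epha7 and Il1rapl1 act in axon guidance and synaptic adhesion. Unc5d, a netrin receptor (chr8:28646717-29219636), was at 172, 163, 63.1 and 44.8 CPM (-1.69 ± 0.24, adjusted p = 0.00869). Epha7, an ephrin receptor, was at 919, 1109, 522 and 645 CPM (-0.79 ± 0.15, adjusted p = 0.0387). The synaptic adhesion protein Il1rapl1 was at 870, 980, 554 and 430 CPM (-0.92 ± 0.16, adjusted p = 0.021). The groups did not overlap in any of the 3 genes. Of the Unc5d UMIs, 51 of 164 in Sel1L fl/fl 1 and 19 of 54 in Sel1L fl/fl 2 came from 1 nucleus each, the latter the nucleus with most Adarb2 UMIs, which also held 70 of 325 Il1rapl1 UMIs. Without the 5 nuclei above, Unc5d was at -1.46 (adjusted p = 0.014) and Il1rapl1 at -0.67 (adjusted p = 0.0498).

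Lingo2, a leucine-rich repeat membrane protein, was at 990, 1166, 618 and 562 CPM (-0.87 ± 0.14, adjusted p = 0.0189). Cadm2, a synaptic cell adhesion molecule, was at 6754, 5497, 3511 and 4038 CPM (-0.70 ± 0.12, adjusted p = 0.0212). In the nuclei taken by any 3 of the 6 CA3 markers, all 16 genes were below 0 but nearer to it, from -0.24 for Lingo2, -0.34 for Il1rapl1 and -0.39 for Unc5d to -1.26 for Cpne9 and -1.40 for Ttn. In 13 of the 16 the change was smaller by over 1.5 times, Brinp3 (-0.91) among them, and none passed. Without Sel1L fl/fl 1, all but Cpne9 and Ttn of the 16 passed, from -0.53 for Cadm2 to -4.28 for Brinp3.

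Kcnb2, Kcnab1, Pcsk2 and Dok6 fell as well. Kcnb2, a delayed rectifier subunit, was at 1147, 1025, 670 and 617 CPM (-0.76 ± 0.14, adjusted p = 0.024). Kcnab1, an auxiliary subunit of Kv1 channels, was at 278, 329, 154 and 136 CPM (-1.06 ± 0.19, adjusted p = 0.0212). Both showed a clear gap between the genotypes. Pcsk2, a convertase that cuts neuropeptide precursors, was at 1319, 1275, 738 and 804 CPM (-0.75 ± 0.13, adjusted p = 0.0212). The adaptor Dok6, which acts downstream of receptor tyrosine kinases, was at 1573, 1492, 928 and 990 CPM (-0.68 ± 0.13, adjusted p = 0.0313).

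The transcription regulators Lmo4 and Trps1 fell too. Lmo4, which encodes a LIM domain cofactor, was at 253, 298, 121 and 137 CPM (-1.07 ± 0.19, adjusted p = 0.0212). Trps1, the gene with the largest ratio of CA3 to other classes given above, was at 2286, 2251, 1378 and 1513 CPM (-0.65 ± 0.12, adjusted p = 0.0313). In both, the Sel1L SynCre pools lay below the Sel1L fl/fl pools. Mgat4c, a glycosyltransferase of the Golgi, was at 3106, 2911, 1866 and 1931 CPM (-0.66 ± 0.12, adjusted p = 0.0212). Nwd2, a protein with WD repeats (chr5:63649102-63810546), was at 398, 347, 173 and 169 CPM (-1.13 ± 0.17, adjusted p = 0.0107) and was the only gene that passed when at least 3 further CA3 markers were required. Leaving out Sel1L SynCre 1 ended the calls of Kcnb2, Pcsk2, Lmo4, Epha7, Mgat4c, Trps1, Cadm2 and Dok6, and leaving out Sel1L SynCre 2 those of Kcnb2, Pdia3, Kcnab1, Lingo2, Mgat4c, Trps1, Gm34567, Dok6, Il1rapl1 and Magt1, with the sign kept in each.

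**Figure D4:**
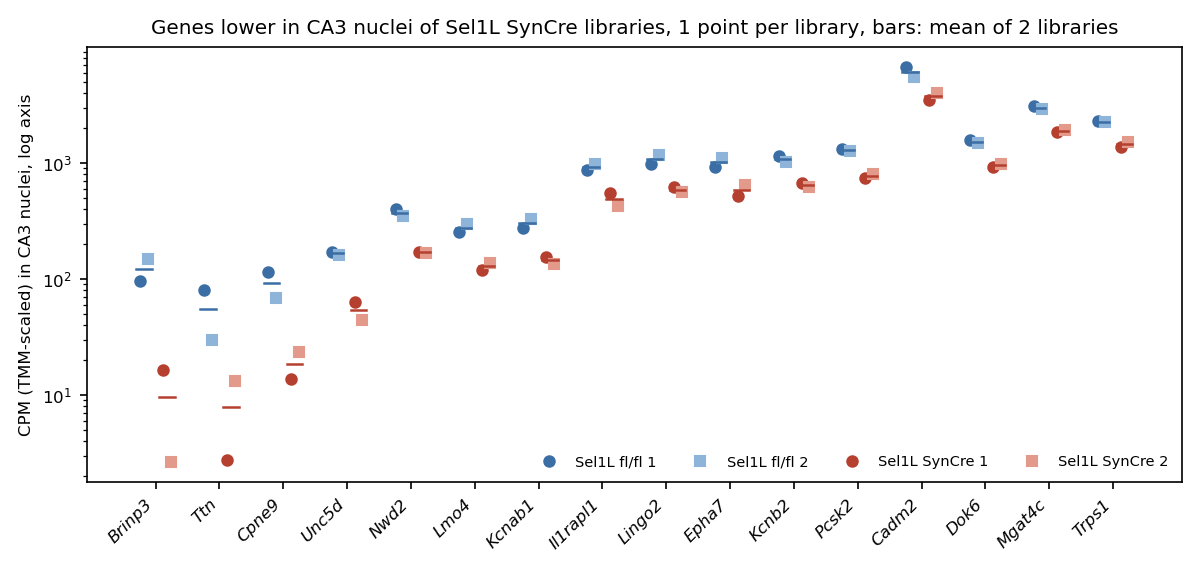
TMM-scaled CPM on a log axis of the 16 genes that fell in CA3 nuclei, with 1 point per library and a bar at the mean of the 2 libraries of a genotype. In each gene both Sel1L SynCre points lie below both Sel1L fl/fl points, from 2.64 CPM for Brinp3 in Sel1L SynCre 2 to 4038 CPM for Cadm2.

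Most of the genes that fell were long, though Cpne9 and Lmo4 were not. The median span of the 16 genes on the genome was 343 kb, against 27.9 kb for the 5 genes that rose and 40.9 kb for all genes tested. Over the 454 tested genes longer than 300 kb the median log2 fold change was -0.15, and over the 2949 of 30 kb or less it was 0.07. The same medians were -0.12 and 0.05 in CA1 nuclei and -0.07 and 0.04 in dentate granule nuclei. Genes over 300 kb held 36.1%, 33.9%, 32.5% and 32.8% of the UMIs of tested genes in the CA3 pools, and the part of length in the fold changes was not tested.

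Glutamate receptors, which carry the mossy fibre and recurrent input of CA3, were mostly at or below the Sel1L fl/fl level. With edgeR 0 of 17 tested genes passed. At an unadjusted p under 0.05, 5 were lower and 0 higher, against 4.57% and 3.86% of all genes tested. Over the 17 genes the median was -0.30, with 2 above 0. Their median span was 426 kb. The metabotropic receptor Grm7 was at 3057, 2749, 2234 and 2209 CPM (-0.39 ± 0.12, edgeR adjusted p = 0.263), and it passed with DESeq2 (-0.39, adjusted p = 0.0416). The other lower members included Gria4 (-0.51 ± 0.21), Gria3 (-0.35 ± 0.14) and the kainate receptor gene Grik2 (-0.33 ± 0.13). Among members of high level, Gria2 was at -0.22 ± 0.12, Grin2a at -0.03 ± 0.12 and Gria1 at 0.03 ± 0.14. The median was -0.28 without Sel1L fl/fl 1, with 2 lower and 1 higher at an unadjusted p under 0.05. In 11 of the 17 genes both Sel1L SynCre pools were below both Sel1L fl/fl pools, where this held for 19.5% of all genes tested.

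Of 28 tested voltage-gated channel genes, Kcnb2 fell and the median was -0.25. At an unadjusted p under 0.05, 3 were higher and 6 lower, against 3.86% and 4.57% of all genes tested. The A-type potassium channel gene Kcnd2 was at 2419, 2107, 1477 and 1734 CPM (-0.49 ± 0.13, adjusted p = 0.162). The L-type calcium channel gene Cacna1d was at 529, 606, 338 and 402 CPM (-0.60 ± 0.16, adjusted p = 0.162). The groups overlapped in neither, and both passed with DESeq2 (adjusted p = 0.0173 for Kcnd2 and 0.0465 for Cacna1d). Kcnd2 was at -0.38 without Sel1L fl/fl 1 and at -0.61 without Sel1L fl/fl 2. Kcnq3 (-0.52 ± 0.18), Kcnh7 (-1.07 ± 0.43) and Scn3a (-0.56 ± 0.26) were the other lower members. Kcnq3 was at -0.35 without Sel1L fl/fl 1 and at -0.67 without Sel1L fl/fl 2. Kcnq5 (0.27 ± 0.12), Kcna1 (0.66 ± 0.25) and the T-type calcium channel gene Cacna1i (0.80 ± 0.36) were higher. Kcnh7 depended on the libraries, at -0.28 without Sel1L fl/fl 1 (adjusted p = 0.924), but at -1.46 without Sel1L fl/fl 2 (adjusted p = 0.000246) and -2.06 without Sel1L SynCre 1 (adjusted p = 0.00947), where it passed. The median of the list was -0.16 without Sel1L fl/fl 1, Kcnb2 again fell, and 4 were lower and 1 higher at an unadjusted p under 0.05.

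Of 18 tested synaptic vesicle and active zone genes, 0 passed with edgeR. At an unadjusted p under 0.05, 3 were lower, against 4.57% of all genes tested. The median was -0.06. With Sel1L fl/fl 1 left out, 2 were lower and the median was -0.11. Rims1, a scaffold of the active zone, was at 2045, 1992, 1468 and 1592 CPM (-0.40 ± 0.12, adjusted p = 0.267). The priming factor Unc13a (-0.68 ± 0.23) and the scaffold Pclo (-0.32 ± 0.14) were the other 2, and the calcium sensor of release Syt1 was at -0.24 ± 0.11. None of the differences passed after adjustment with edgeR, while Rims1 passed with DESeq2 (-0.40, adjusted p = 0.0465).

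Of 7 tested activity genes in the CA3 pools, 0 had an unadjusted p under 0.05 and the median was -0.01. Homer1, a postsynaptic scaffold with an activity-induced short form, was at 180, 175, 181 and 140 CPM (-0.17 ± 0.20), and the nuclear receptor gene Nr4a3 at 56.8, 102, 49.4 and 65.9 CPM (-0.31 ± 0.31, and -0.78 without Sel1L fl/fl 1), both with overlapping groups. The sorting receptor gene Sorcs3 was at 0.60 ± 0.33 (adjusted p = 0.662), and it passed without Sel1L fl/fl 1 (1.33, adjusted p = 0.0043), where 5 activity genes were tested, 2 were lower at an unadjusted p under 0.05 and the median was -0.14. Of 8 tested glucocorticoid-responsive genes, 3 were higher at an unadjusted p under 0.05 and the median was 0.02 (0.05 without that library, with 1 higher). The 3 were Fkbp5, Errfi1 and Mt1, against 3.86% higher among all genes tested. Fkbp5, a brake on the glucocorticoid receptor, was at 57.8, 51.2, 93.3 and 98.9 CPM (0.80 ± 0.25, edgeR adjusted p = 0.268). The receptor feedback inhibitor Errfi1 was at 0.67 ± 0.27 and the metallothionein Mt1 at 1.17 ± 0.53.

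None of the tested genes of 4 further lists had an unadjusted p under 0.05 in either direction. These were 3 p53 and apoptosis genes (median -0.06), 6 of cholesterol synthesis (0.12), 6 of the cytosolic heat shock response (0.07) and 8 encoded by the mitochondrial genome (-0.38). Without Sel1L fl/fl 1 the medians were 0.16 over 2 p53 and apoptosis genes, -0.07 over 6 of cholesterol synthesis, 0.32 over 4 of heat shock and -0.60 over the 8 mitochondrial genes, again with none at an unadjusted p under 0.05. The counts describe CA3 pools in which many transcripts of low count fell under the filter, such as 13 of 16 p53 and apoptosis genes.

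The CA3 response was next set beside that of CA1 and dentate granule nuclei of the same libraries. CA1, with 1091 nuclei, is the neighbouring pyramidal field, and dentate granule neurons, with 1255 nuclei, are the main input of CA3. In CA1, 0 of 13093 genes passed (0%, 1027 at an unadjusted p under 0.05, or 7.84%, edgeR), and in dentate granule nuclei 97 of 12635 (0.768%), 64 of them higher (0.507%). Over the chaperone list, medians of the log2 fold change were 0.79 in CA3, 0.22 in CA1 with 0 of 24 genes past the threshold, and 1.22 in dentate granule nuclei with 13 of 24 higher.

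A gene called in one type and not in another is not thereby different, so the difference of the genotype effects was tested itself. Against CA1, 0 of 12585 genes passed (0%), with 695 at an unadjusted p under 0.05 (5.52%) and 1 gene passing with DESeq2. The difference was 1.26 ± 0.26 for Dnajc3 (adjusted p = 0.424), 1.47 ± 0.31 for Pdia3 (adjusted p = 0.424), 1.15 ± 0.25 for Hsp90b1 (adjusted p = 0.476) and 1.495 ± 0.37 for Hspa5 (adjusted p = 0.539), each larger in CA3. Sel1l differed by 0.83 ± 0.21 (adjusted p = 0.539), at 103, 133, 228 and 207 CPM in CA3 and a log2 fold change of 0.08 ± 0.12 in CA1. The genes nearest to the threshold were Brinp3, with a difference of -3.63 ± 0.47, and Unc5d, with -2.12 ± 0.29, both at an adjusted p of 0.057. Of the Brinp3 UMIs in the Sel1L fl/fl CA3 pools, 43 of 91 and 42 of 49 came from 1 nucleus each. For Unc5d these were 51 of 164 and 19 of 54.

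Against dentate granule nuclei, 0 of 12057 genes passed (0%), with 821 at an unadjusted p under 0.05 (6.81%) and 0 with DESeq2. The difference of effects was -0.35 ± 0.29 for Dnajc3, 0.08 ± 0.34 for Hspa5, 0.52 ± 0.32 for Pdia3 and 0.42 ± 0.49 for Magt1. Pdia6 of the chaperone list, named after its values were seen, differed by -1.61 ± 0.27 (adjusted p = 0.19), the smallest p of the comparison. None passed, which does not show that the types respond alike. Nwd2 was at -1.13 in CA3 and -0.05 in dentate granule nuclei, a difference of -1.06 ± 0.19 (adjusted p = 0.19), and Nr4a3 at -0.31 and 1.81, a difference of -2.14 ± 0.36 (adjusted p = 0.19). Without the library labelled Sel1L fl/fl 1, both comparisons also had 0 genes past the threshold. Without Scrublet doublets, however, 22 genes differed between CA3 and dentate granule nuclei and 2 between CA3 and CA1, and with edgeR's earlier dispersion method 7 and 2.

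**Figure D5:**
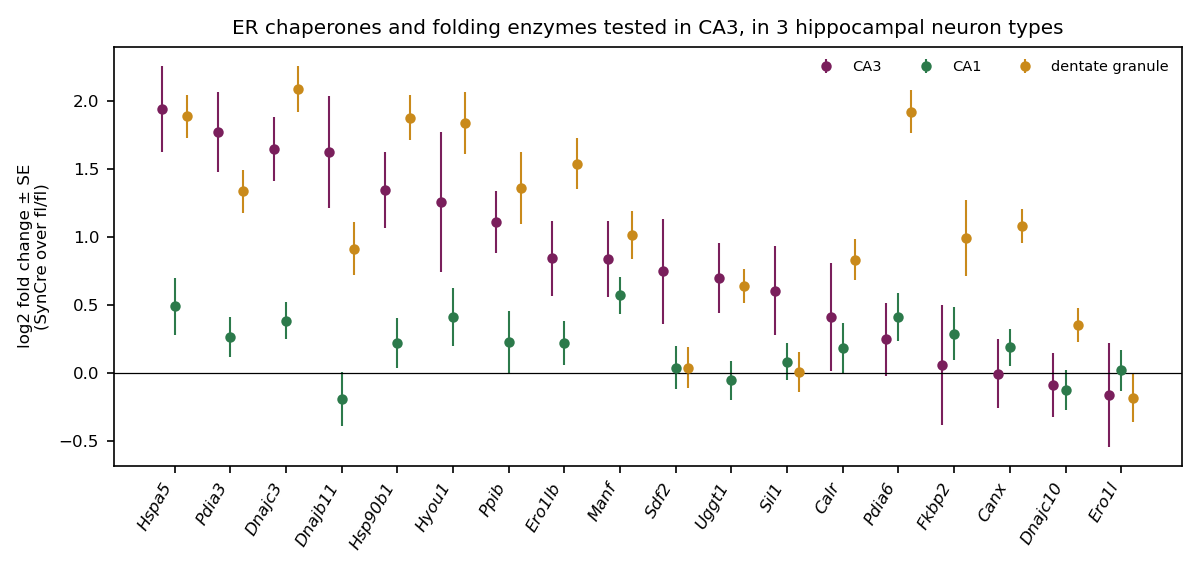
Log2 fold change (Sel1L SynCre over Sel1L fl/fl) with its standard error for the 18 ER chaperones and folding enzymes tested in CA3, in CA3, CA1 and dentate granule nuclei. For Hspa5 the values are 1.94 in CA3, 0.49 in CA1 and 1.89 in dentate granule nuclei. No difference between types passed the interaction test.

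RNA of other cell types was present in the CA3 pools at a low level. The 8 oligodendrocyte genes summed to 62.0, 45.2, 16.5 and 84.4 CPM, with Mbp the most abundant, the 8 inhibitory neuron genes to 72.5, 90.4, 13.7 and 58.0 CPM, with Adarb2 the most abundant, and the 6 cortical layer genes to 83.0, 45.2, 96.1 and 18.5 CPM, led by Rorb. Oligodendrocyte and cortical genes overlapped between the genotypes, while the inhibitory sum was lower in both Sel1L SynCre pools. Of the inhibitory genes only Adarb2 was tested, with a log2 fold change of -1.21 (adjusted p = 0.379) and 5.49 CPM in Sel1L SynCre 1. The 5 microglia genes, led by P2ry12, summed to 71.5, 96.4, 71.4 and 71.2 CPM, the 5 astrocyte genes to 7.36, 9.04, 10.98 and 10.5 CPM, and the 3 endothelial genes to 3.15, 0, 8.23 and 6.59 CPM. Astrocyte and endothelial sums were thus higher in both Sel1L SynCre pools, on 4 to 8 and 3 to 5 UMIs, and the endothelial gene Cldn5 and the precursor gene Cspg4 were at 0 UMIs in all 4 pools. The 6 dentate granule genes, led by Stxbp6, summed to 33.6, 24.1, 10.98 and 39.6 CPM and overlapped between the genotypes, as did the 6 CA2 genes (22.1, 33.2, 21.96 and 39.6 CPM). The part of RNA from other types in the fold changes was not tested.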

How the data were processed

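Nuclei were isolated from frozen tissue and sorted before 10x 3' library preparation. The authors deposited raw UMI counts per gene and nucleus, and the submitters' processing notes name Cell Ranger 6.1.0 and GRCm38. Whether introns or strand entered the counting is not given in the sources used here, so genes that overlap others are uncertain. The members and lists were chosen with earlier results of these data known.

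The 4 libraries held 74082610 to 122870443 UMIs as deposited. Nuclei with 600 or fewer genes or with 5% or more mitochondrial UMIs were left out, and 36094 were kept. CA1 nuclei held at least 3 of the 6 CA1 markers and were not CA3. Dentate granule nuclei held Prox1 and at least 2 of C1ql2, Dsp, Glis3, Tdo2 and Stxbp6. Raw counts were summed per library and cell type and tested with edgeR 4.0.16 in R 4.3.3 (quasi-likelihood test, TMM scaling, filterByExpr, Benjamini-Hochberg adjustment over all genes tested, threshold 0.05, prior count 0.125). Interactions of genotype with cell type had the library as a block. Shares were compared by an exact permutation test. Replicates are separate mice with no stated batch. Suspected doublets were left in and removed by Scrublet (scanpy 1.11.5) as an alternative, with DESeq2 1.42.0, scalings, filters, memberships, thinning and left-out libraries as others.

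The tests were checked on simulated data. Every gene was drawn with 1 common dispersion per comparison (0.0173 for CA3, 0.00747 against CA1 and 0.00708 against dentate granule nuclei). Spread that differs between genes, or UMIs gathered in 1 nucleus, was not simulated, so real recovery and false calls can differ. At a true log2 change of 1 in CA3, 59 of 187 changed genes were recovered with 0 others called among 7413 genes, and at 2, 172 of 184 with 8 others among 7375. For the interactions at a log2 change of 2, 104 of 195 were recovered against CA1 and 109 of 197 against dentate granule nuclei. Named genes were Sel1l, Cre, all genes past the threshold in CA3, members of each list with an unadjusted p under 0.05 or the most UMIs, and the markers. Tested lists are described by their counts and medians, and some single genes are not reported here. Positions are from GENCODE vM21 (32235 of 32286 features found) and promoters from the RefSeq table.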

Additional observations from a re-analysis of the deposited data

Results flagged for a closer look

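UMIs of the Cre transgene were found in a library whose label has no Cre. Over all kept nuclei the library labelled Sel1L fl/fl 1 held 490 Cre UMIs, against 0 in Sel1L fl/fl 2 and 262 and 260 in the Sel1L SynCre libraries. In the CA3 nuclei alone the counts were 3, 0, 1 and 5. The total count and the called genes that lost their call are given with and without this library in the report, and the origin of these UMIs was not tested. Over all kept nuclei, without TMM scaling, Derl3 was at 0.562, 0.535, 17.1 and 10.5 CPM in the 4 libraries. Sel1l was at 97.1, 90.1, 157 and 130 CPM.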

How the results depend on the processing

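All 21 genes called in CA3 nuclei kept their sign in every alternative that gave a value, while the count of calls varied. Against 21, it was 35 with DESeq2 (9 of the 21 among them, the other 12 having no adjusted p), 1 with the stricter membership, 3 with the looser one, 0 with no filter on low counts (1071 at an unadjusted p under 0.05), 0 after thinning to the smallest total, 1 with the wider membership, 41 without nuclei rich in other types' markers, and 30 to 117 when 1 library was left out, where the lone sample is assumed to vary like the other genotype. The 12 genes without an adjusted p from DESeq2 included Dnajc3, Hspa5, Pdia3, Magt1 and Gm34567, so DESeq2 gave no verdict on the genes that rose. The genes called higher with DESeq2 were Cacnb2, Dab1 and Ptprg. Against CA1, 0 genes became 1 with DESeq2, 1 after thinning, 2 without Scrublet doublets and 2 with edgeR's earlier dispersion method. Against dentate granule nuclei 0 became 22 without Scrublet doublets and 7 with the earlier method. The wider membership, the removal of nuclei rich in other types' markers and the earlier dispersion method were chosen after seeing the data. With the replicate number as a replicate block, 111 genes passed in CA3 nuclei, the 21 among them, and in addition Hsp90b1 (adjusted p = 6.56e-05), Ppib (0.00463), Dnajb11 (0.00977), Ero1lb (0.0443), Mthfd2 (0.0142), Herpud1, Ddit3, Sel1l, Selenos and Cacna1d (0.0247). Same-numbered libraries had the same sex pattern, and the labels name nothing else that they share. The correlation of their deviations, 0.156, is a single value with 2 per group and does not decide this. The difference in the share of CA3 nuclei, 0.0469 points, was 1.87 of hippocampal excitatory nuclei and -0.0849 to 0.179 with 1 library left out (-0.0489 without Sel1L fl/fl 2, -0.0849 without Sel1L SynCre 2).

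Some small log2 values turned sign, and the cause was not tested. In CA3 nuclei, Atf6 (0.02) was -0.046 with the looser membership, -0.018 with no filter, -0.13 thinned and -0.025 with the wider membership, and Grin2a (-0.03) was 0.017 with the stricter membership and 0.013 without doublets. With the wider membership Kcnq5 was -0.012 and Homer1 0.092. With 1 library left out the ranges were -0.12 to 0.21 for Atf6, -0.11 to 0.035 for Grin2a, -0.14 to 0.68 for Ern1, -0.13 to 0.21 for Gria1, -0.35 to 0.032 for Homer1 and -0.78 to 0.049 for Nr4a3. The difference from CA1 ranged from -0.0072 to 1.40 for Gm34567. The difference from dentate granule nuclei was -0.27 thinned, -0.029 without doublets, -0.022 without nuclei rich in other types' markers and -0.42 with the wider membership for Hspa5, 0.60 thinned for Cpne9, and with the wider membership 0.47 for Cpne9, 0.38 for Brinp3, 0.12 for Lingo2, 0.10 for Unc5d and -0.57 for Magt1. It ranged from -0.14 to 0.65 for Hspa5 and from -0.33 to 0.78 for Magt1. Depth limits genes of low level, since 20 nuclei in 2 libraries give few UMIs per gene.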

Other observations

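Pdia6, a disulfide isomerase of the ER that dampens IRE1 signalling, had the smallest p of the difference between CA3 and dentate granule nuclei, and was chosen after its values were seen. Scaled for that comparison, it was at 60.3, 48.4, 68.4 and 63.5 CPM in CA3 nuclei and at 32.7, 28.6, 129 and 101 CPM in dentate granule nuclei. The difference of the log2 fold changes was -1.61 ± 0.27 (edgeR quasi-likelihood test, adjusted p = 0.19), below 0 but not past the threshold. Calr, the soluble lectin chaperone calreticulin, was at 28.4, 24.1, 52.2 and 26.4 CPM in CA3 nuclei, with a log2 fold change of 0.41 ± 0.40.

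Kcnb2 and Lmo4, which fell in CA3 nuclei, had log2 fold changes of 0.07 and 0.04 in dentate granule nuclei, and the differences were -0.82 ± 0.15 and -1.11 ± 0.20 (adjusted p = 0.19 for each). Homer1 was at -0.17 in CA3, 0.68 in CA1 and 0.77 in dentate granule nuclei, and its difference from dentate granule nuclei was -0.94 ± 0.20 (adjusted p = 0.219). None of these differences passed the test over all genes.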
